A study of Mus musculus with 12 samples.

Results

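The miR-29 family in mouse liver consists of 3 mature microRNAs (miRNAs) on the array used here, mmu-miR-29a, mmu-miR-29b and mmu-miR-29c (written without the prefix hereafter), and this account follows them over 2 days of a light-dark schedule. They were selected by name, star forms left out, and are 3 of the 650 entries on the array, of which 611 are mouse miRNAs. Adult mice with free access to food and water lived on a schedule of alternating 12-h light and 12-h dark phases. Sampling ran at 4-h steps from zeitgeber time (ZT, hours counted from lights-on) 18 to 62. At each step the RNA of 2 livers was pooled and hybridised to 1 Agilent one-colour (Cy3) array. The dark group holds the 6 pools of ZT18, 22, 38, 42, 46 and 62, and the light group the 6 pools of ZT26, 30, 34, 50, 54 and 58. The 12 pools cover 6 clock times, 2, 6, 10, 14, 18 and 22 h counted from lights-on, by 2 pools each, 24 h apart, the later one called cycle 2 and the earlier one cycle 1. No group received a treatment or carried an altered gene, and strain and sex are not given in the sources used here. A value stands for a pool, so differences between mice within a pool cannot be seen.

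miRNAs guide Argonaute proteins to messenger RNAs through the seed, a short stretch near their 5′ end, and lower the output of the messengers they pair with. Messengers of fibrillar collagens, elastin and other matrix proteins, and of the DNA methyltransferases Dnmt3a and Dnmt3b, are well-known targets of miR-29. In liver, miR-29 is known as a restraint on fibrosis, since it falls when hepatic stellate cells turn into matrix-producing cells. miR-29a has also been reported to act on the messenger of Per1, a core repressor of the circadian clock, which is the family's link to the subject of this series.

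The mature sequences are shown because the members share the seed and differ in few other letters. They are from RefSeq (GRCm38.p6), written 5′ to 3′, with the seed (bases 2 to 8) in capitals.
miR-29a: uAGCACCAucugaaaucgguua
miR-29b: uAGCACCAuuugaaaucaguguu
miR-29c: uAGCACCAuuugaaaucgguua
All 3 carry the same seed, and no other name among the 1679 mature mouse names of that table carries it. Counting positions from 1 at the 5′ end, with the base of miR-29a first, miR-29c differs from miR-29a only by C10U over 22 positions. miR-29b differs from miR-29a by C10U, G18A, U21G and A22U over those 22 positions and is 1 base longer, with 23 bases. Relative to miR-29b, with its base first, miR-29c has A18G, G21U and U22A.

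The family comes from a pair of clusters. Mir29a (mature arm at chr6:31062673-31062694, minus strand) lies 275 bases from Mir29b-1 (mature arm at chr6:31063025-31063047, minus strand), and the annotation table lists no gene that spans both hairpins. Mir29b-2 (mature arm at chr1:195037091-195037113, plus strand) lies 426 bases from Mir29c (mature arm at chr1:195037600-195037621, plus strand). Both of the latter hairpins lie within the bounds of A330023F24Rik, a long noncoding RNA gene. The mature miR-29b of both loci is the same, so its signal is the sum of both clusters, while miR-29a and miR-29c each come from one.

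The members were well measured. Each has 2 probes with 10 spots a probe, and all 240 spots of each member over the 12 arrays lay well above background, with 0 saturated. By the scanner software's own detection call for an entry, each member was detected on 12 of 12 arrays. Their passenger strands, the other arm of the hairpin, were near background, and by the same call miR-29a* was detected on 0 arrays, miR-29b* on 1 and miR-29c* on 1. At most 7.92% of the spots of a star form were well above background. Intensities depend on the probe, so the members' levels are not set against each other. The probes' sequences were not used here, and how far the probes of 1 member also bind the others was not tested.

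An array of the series detected 132 to 162 entries, and 139 entries detected on at least 6 arrays entered the tests. Values are intensities scaled between arrays, and log2 is taken of these with a floor of 21.9 intensity units. Of the tested entries, 109 never lay at that floor. The tissue label was checked against marker miRNAs. All 4 hepatocyte markers (miR-122, miR-192, miR-194 and miR-148a) were detected on all 12 arrays, and none of 3 striated muscle, 3 neuronal and 3 pancreatic markers on any (0 in each list). Markers of other liver cells were present: 1 of 1 endothelial, 2 of 2 red cell, 2 of 4 leukocyte and 3 of 5 stellate or smooth muscle miRNAs were detected on all 12 arrays. In bulk liver RNA, a change in the number of cells of a type and a change in RNA per cell cannot be told apart. Arrays ZT18 to ZT46 shared slide 1 and ZT50 to ZT62 slide 2.

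Across the 12 pools the members moved little with the scaling used. miR-29a, whose reported target Per1 belongs to the clock, ranged from 1950 to 2242 scaled intensity units, with a mean of 2071 ± 87.8 (SD, n = 12). Its highest pool was ZT34 and its lowest ZT50, and the highest stood 1.15-fold above the lowest. miR-29c ranged from 765.3 to 842.2 with a mean of 799.8 ± 28.4 (SD, n = 12), a highest over lowest of 1.10. Its SD on the log2 scale, 0.05, ranked 4th from the bottom among the 109 entries never at the floor, whose median SD was 0.10. miR-29b ranged from 1116 to 1459, with a mean of 1226 ± 102 (SD, n = 12), a highest over lowest of 1.31. Its SD of 0.12 ranked 63rd from the bottom, and that of miR-29a, 0.06, ranked 19th.

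**Figure D1:**
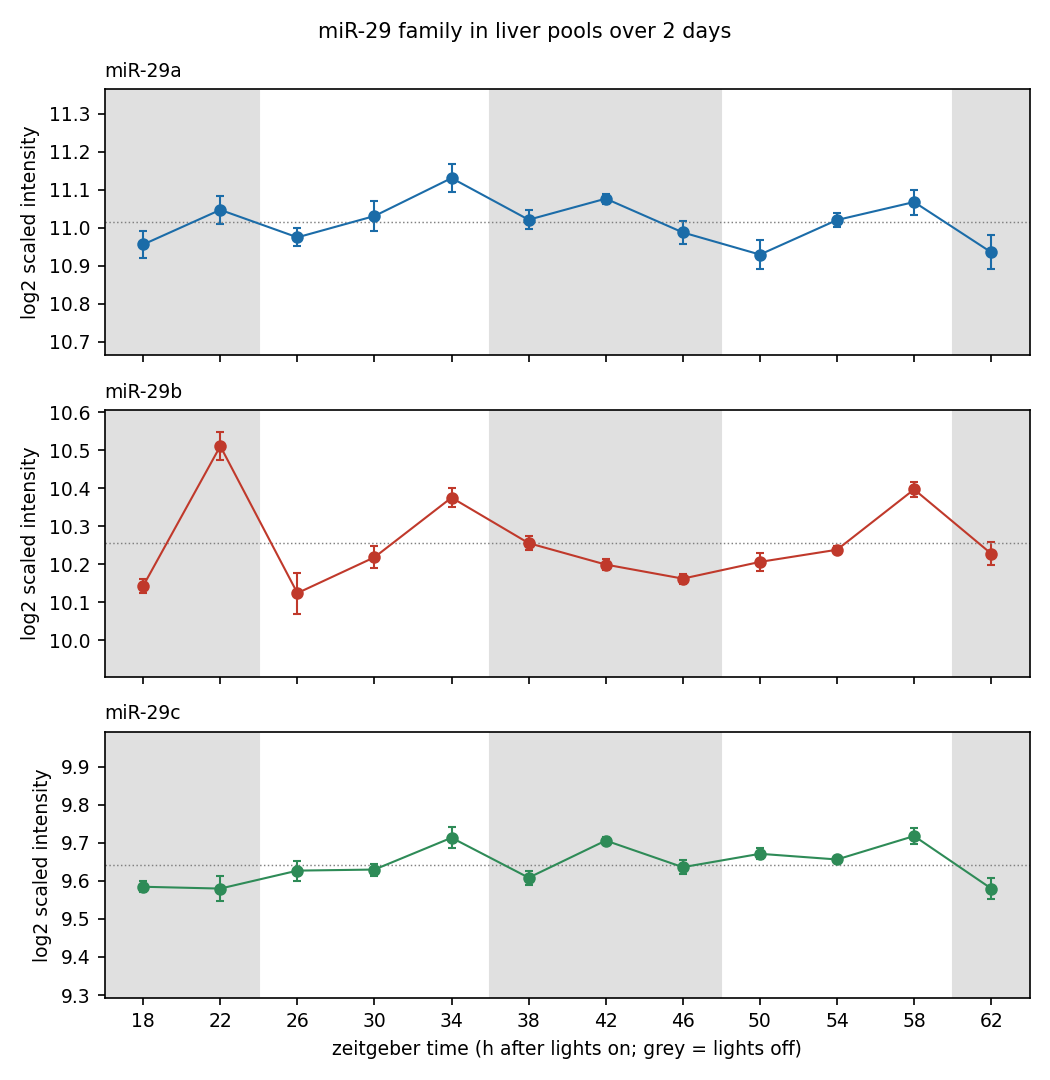
Log2 scaled intensity (vertical axis) of the 3 members against zeitgeber time in hours, 1 pool of 2 livers a point, with bars of ± 1 standard error over the spots of the probe and the dotted line at the mean of 12 arrays; grey marks lights off. Each panel spans the same log2 width, and the miR-29b pool of ZT22 stands at 10.51, above all other miR-29b pools.

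These small movements were shared by the probes of a member. Over the 12 arrays the brighter and the dimmer probe of miR-29c correlated with r = 0.936 (permutation p = 4e-05) and rho = 0.874 (permutation p = 0.00047). For miR-29b, r was 0.911 (permutation p = 7e-05) and rho 0.853 (permutation p = 0.00075). For miR-29a, r was 0.785 (permutation p = 0.00249) and rho 0.853 (permutation p = 0.0008). All 3 relations had a Benjamini-Hochberg adjusted permutation p of at most 0.00249 over the 3 members. Without the 2 arrays farthest from the median, r was 0.898 for miR-29c, 0.803 for miR-29b and 0.852 for miR-29a. Within the 8 arrays of slide 1, r was 0.964, 0.935 and 0.897 for miR-29c, miR-29b and miR-29a, with exact permutation p-values of 0.00208, 0.000843 and 0.00258. The probes of a member share the pool, the labelling, the hybridisation and the scaling, so this agreement covers the spot and the probe and none of those steps. The median standard error over the spots of the probe used was 0.03 log2 units for miR-29a, 0.02 for miR-29b and 0.02 for miR-29c, below each member's SD between arrays.

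**Figure D2:**
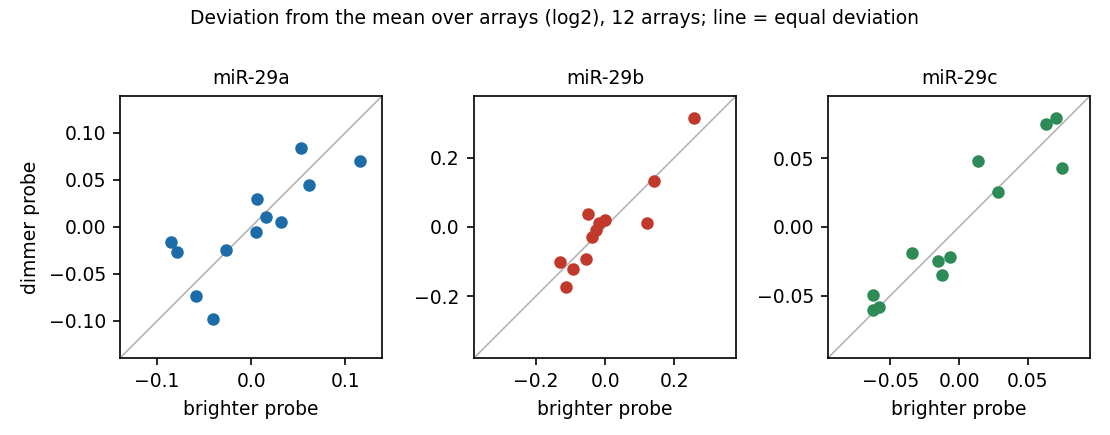
Deviation of the dimmer probe (vertical axis) against that of the brighter probe (horizontal axis) from their own means over 12 arrays, in log2 units, 1 array a point and 1 member a panel; the line marks equal deviation. Points lie along the line in each panel (r = 0.785, 0.911 and 0.936), and the axes differ between panels.

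The first question was whether the members followed a 24-h rhythm. None passed the test. miR-29a had a fitted peak-to-trough fold of 1.05 with an upper 95% limit of 1.15, and its fitted maximum stood at 10.6 h after lights on. miR-29b, with the widest spread of the 3, had a fold of 1.06, an upper limit of 1.28 and its fitted maximum at 10.5 h. miR-29c had a fold of 1.04, an upper limit of 1.13 and its fitted maximum at 8.0 h. Limma's moderated F test of the fitted 24-h wave gave unadjusted p-values of 0.416, 0.725 and 0.355 for miR-29a, miR-29b and miR-29c, and adjusted p-values of 0.944, 0.993 and 0.944. Of the 139 tested entries 0 passed (0%), and 5 (3.6%) had an unadjusted p under 0.05. Over the 109 entries never at the floor, the median fold was 1.07 and the median upper limit 1.25. The limits of miR-29c and miR-29a ranked 12th and 21st from the smallest of these 109 and that of miR-29b 60th. These limits hold for the scaling used. Scaled over all probes instead, the folds were 1.33, 1.33 and 1.30 for miR-29a, miR-29b and miR-29c, above the limits. Limma's adjusted p was then 0.864 for each. Of an array's spots, 16.5% to 19.6% were well above background, so a 75th percentile over all probes falls near background. Its factors ran from 0.674 to 2.18, against 0.910 to 1.16 for the scaling used. With the scaling used but without the ZT22 pool, the fold of miR-29b was 1.16. Its unadjusted limma p was then 0.0039 and its adjusted p 0.273, so its 24-h result depends on this pool. The pool was singled out after its value was seen.

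**Figure D3:**
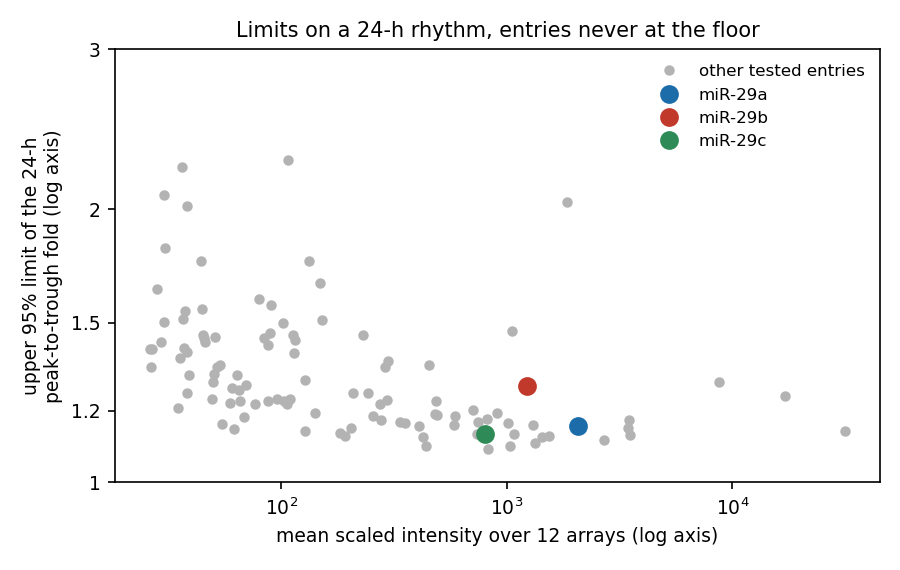
Upper 95% limit of the fitted 24-h peak-to-trough fold (vertical log axis) against mean scaled intensity over 12 arrays (horizontal log axis) for the 109 tested entries never at the floor, with the 3 members in colour. With the scaling used, miR-29a and miR-29c have limits of 1.15 and 1.13, and miR-29b one of 1.28.

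Dark pools were then set against light pools, which for nocturnal mice separates the active, feeding phase from rest. miR-29c, the member of the chromosome 1 cluster, was measured between 765.3 and 835.3 (median 774.2) in the dark pools and between 790.8 and 842.2 (median 811.2) in the light pools. Of 6 dark pools 5 lay below the light mean, and the dark ZT42 pool (835.3) overlapped the light range. On the log2 scale its mean was 9.62 ± 0.05 in the dark and 9.67 ± 0.04 in the light (SD, n = 6 each), which made the dark level 0.964 of the light one (95% interval 0.927 to 1.001). Limma gave an unadjusted p of 0.058 and an adjusted p of 0.602, rank 13 of the 139 entries, so the difference did not pass. An exact two-sided permutation test over all 924 splits gave p = 0.0671 for miR-29c, the smallest possible being 0.00216. For each member these splits part the pools of a clock time freely, although each clock time is wholly dark or wholly light. A permutation that keeps clock times whole was not run.

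miR-29a was measured between 1958 and 2160 (median 2054) in the dark and between 1950 and 2242 (median 2085) in the light, with ranges that overlapped almost fully. Its fold was 0.985 (95% interval 0.934 to 1.04), 4 of 6 dark pools lay below the light mean, and limma's adjusted p was 0.898 (exact permutation p = 0.561). miR-29b was measured between 1131 and 1459 (median 1188) in the dark and between 1116 and 1348 (median 1199.8) in the light. Its fold was 0.993 (95% interval 0.897 to 1.1), 5 of 6 dark pools lay below the light mean, and limma's adjusted p was 1 (exact permutation p = 0.903). The 1 dark pool above was ZT22.

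Of the 139 tested entries 0 (0%) passed between dark and light and 11 (7.91%) had an unadjusted p under 0.05. A lower mean in the dark was the commoner direction over all entries (93 lower, 41 higher and 5 at the floor on all 12 arrays, median -0.02 log2 units). The differences of miR-29a and miR-29b, -0.02 and -0.01, stood near that median. That of miR-29c, -0.05, lay below it, with a size near the median size of 0.05 over all entries. With the slide as a block the differences of miR-29c, miR-29a and miR-29b were -0.05, -0.04 and -0.0044 log2 units. Within slide 1 they were -0.03, -0.03 and 0.01, and within slide 2, which holds 1 dark pool, -0.10, -0.07 and -0.05. The direction also rests on the scaling. Without scaling the differences of miR-29c, miR-29a and miR-29b were 0.0074, 0.04 and 0.05. Among the marker lists, 4 of 4 hepatocyte markers had a lower mean in the dark (median difference -0.03 log2 units), as had 2 of 2 tested leukocyte markers (-0.06). The 3 tested stellate or smooth muscle markers had a higher one (0.09), as had 2 of 2 red cell markers (0.0068) and 1 of 1 endothelial marker (0.0081). None of these markers passed the test, and their part in the members' values was not tested. No member's dark minus light value was shown to differ between cycles. For miR-29b it was -0.08 in cycle 2 and 0.06 in cycle 1 (limma interaction, adjusted p = 0.944), for miR-29c -0.04 in cycle 2 and -0.07 in cycle 1, and for miR-29a -0.0060 in cycle 2 and -0.04 in cycle 1 (limma, adjusted p = 0.944 each).

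**Figure D4:**
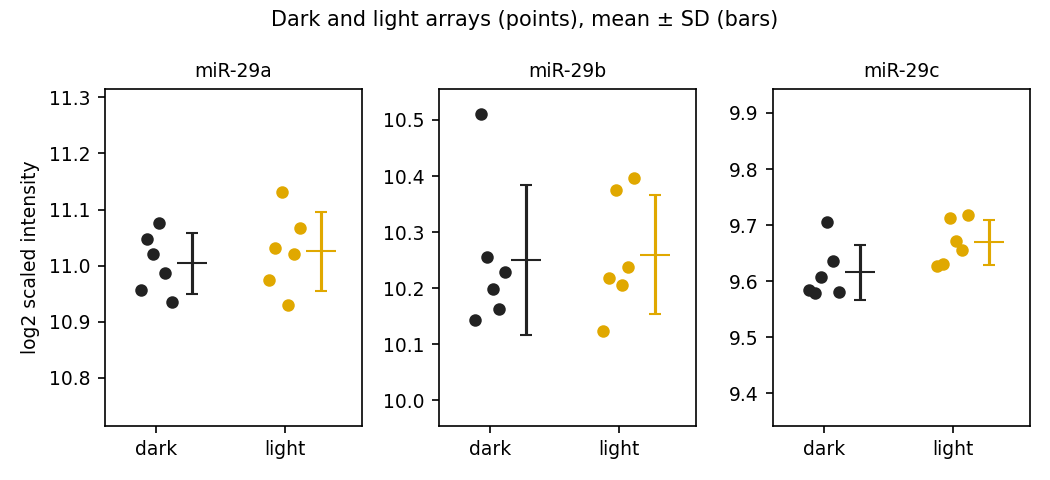
Log2 scaled intensity (vertical axis) of the 6 dark and the 6 light pools (points) of each member with the mean ± SD (bars). Dark and light overlap in each panel, and the dark miR-29b pool at 10.51 is ZT22.

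Clock times were compared without assuming a shape. The pools of 10 h after lights on, late in the rest phase, were among the 3 highest of each member. miR-29c, which shares its hairpin cluster with Mir29b-2, measured 839.6 and 842.2 at ZT34 and ZT58, its 2 highest pools. miR-29a measured 2242 and 2146 in these pools, its highest and, behind ZT42 (2160), the next highest. miR-29b measured 1328 and 1348, its highest pools apart from ZT22 (1459). The coincidence was noticed in the data and not tested as such. Over the 109 entries never at the floor, 26 (23.9%) also had their highest clock-time mean at 10 h, and 15 (13.8%) had both 10-h pools among their 3 highest. It also depended on the processing: 10 h gave the highest mean in 3 of 7 settings for miR-29a, 5 of 7 for miR-29b and 4 of 7 for miR-29c, the settings being 7 ways of scaling or summarising the signals.

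At the other clock times the values were as follows. miR-29a measured 2012 and 1950 at 2 h (ZT26 and ZT50), 2092 and 2077 at 6 h, 2078 and 1958 at 14 h, 1986 and 2160 at 18 h and 2116 and 2031 at 22 h. Its order of means, from the highest, was 10, 6, 22, 18, 14 and 2 h, and only the step below 10 h (0.07 log2 units) exceeded the pooled SD between pools of a clock time (0.05). miR-29c measured 790.8 and 815.4 at 2 h, 792.3 and 807 at 6 h, 780.6 and 765.4 at 14 h, 767.8 and 835.3 at 18 h and 765.3 and 795.7 at 22 h. Its order was 10, 2, 18, 6, 22 and 14 h, and again only the step below 10 h (0.07) exceeded the pooled SD (0.04). The remaining neighbours of both orders did not differ beyond their spread. The orders were set by these same values, so the steps are a description and no test.

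miR-29b measured 1116 and 1182 at 2 h, 1192 and 1208 at 6 h, 1223 and 1199 at 14 h, 1131 and 1176 at 18 h and 1459 and 1146 at 22 h. Its order was 10, 22, 14, 6, 18 and 2 h, and 0 of 5 neighbouring steps exceeded its pooled SD of 0.11. That SD came from 1 clock time: its pools of 22 h differed by 0.35 log2 units, those of the other clock times by 0.02 to 0.08.

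The clock-time means spanned 1.11-fold for miR-29a, 1.17-fold for miR-29b and 1.09-fold for miR-29c, against a median of 1.14 over the 109 entries. Limma's F test over 6 clock times gave an adjusted p of 0.795 for each member (unadjusted 0.182, 0.268 and 0.175), with 0 of 139 entries (0%) passing and 5 (3.6%) at an unadjusted p under 0.05. The miR-29b result hung on the pools of 22 h. Without the ZT46 pool, which leaves ZT22 alone at its clock time and assumes it to vary like the rest, the span of miR-29b was 1.27-fold with an adjusted limma p of 0.0491, 1 of 2 entries (1.44% of 139) that passed, miR-143 being the other. Without the ZT22 pool, which leaves ZT46 alone at its clock time, the span of miR-29b was 1.17-fold, as with all pools. Leaving out either pool also takes their gap of 0.35 log2 units out of the spread that the test uses. How far this alone lowers the p-value was not tested.

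Cycle 2 was set against cycle 1 within clock times. miR-29c ranged from 765.4 to 842.2 (median 811.2) in cycle 2 and from 765.3 to 839.6 (median 785.7) in cycle 1. It was higher in cycle 2 in 5 of 6 pairs, with a fold of 1.03 (95% interval 0.991 to 1.06). miR-29a ranged from 1950 to 2160 (median 2054) in cycle 2 and from 1986 to 2242 (median 2085) in cycle 1, with a fold of 0.984 (95% interval 0.936 to 1.03), and was higher in cycle 2 in 1 of 6 pairs. miR-29b ranged from 1146 to 1348 (median 1190.5) in cycle 2 and from 1116 to 1459 (median 1207) in cycle 1, with a fold of 0.978 (95% interval 0.883 to 1.08), and was higher in cycle 2 in 4 of 6 pairs. Limma gave adjusted p-values of 0.865, 0.866 and 0.876 for miR-29c, miR-29a and miR-29b, with 0 of 139 entries (0%) passing and 5 (3.6%) at an unadjusted p under 0.05. Slide 2 holds cycle 2 pools only, the later pools of 2, 6, 10 and 14 h. A fit with the slide as a block therefore rests on the pairs of 18 and 22 h, the latter with the ZT22 pool. With the slide as a block the log2 differences were 0.09, 0.03 and -0.15 for miR-29c, miR-29a and miR-29b. All 3 moved by over 1.5 times or changed sign against the fit without the block. miR-29c then had an unadjusted limma p of 0.0217 and an adjusted p of 0.754.

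A 12-h rhythm beside the 24-h one gave the smallest p-values for miR-29a and miR-29b, and neither passed. The fitted 12-h fold of miR-29a was 1.08 (upper 95% limit 1.17) with maxima at 8.78 h and 12 h later, and that of miR-29b was 1.16 (upper limit 1.36) with maxima at 10.04 h and 12 h later. Without ZT22 the 12-h fold of miR-29b was 1.08 (unadjusted limma p 0.0428, adjusted 0.751). Without ZT46 it was 1.23 (unadjusted limma p 0.0033, adjusted 0.177). Both pools were singled out after their values were seen. miR-29c had a 12-h fold of 1.03 (upper limit 1.13). With all pools kept, limma's unadjusted p-values were 0.062, 0.0675 and 0.561 for miR-29a, miR-29b and miR-29c, and the adjusted ones 0.625, 0.625 and 0.939. Of the 139 entries 0 (0%) passed, and 8 (5.76%) had an unadjusted p under 0.05.

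Whether the members moved together over the pools was asked next. miR-29a and miR-29c, which differ by 1 base and come from different clusters, correlated over the 12 pools with r = 0.600 (permutation p = 0.0418, adjusted 0.0627 over the 3 pairs) and rho = 0.455 (permutation p = 0.140, adjusted 0.209). miR-29a and miR-29b, neighbours in the chromosome 6 cluster, correlated with r = 0.599 (permutation p = 0.0394, adjusted 0.0627) and rho = 0.545 (permutation p = 0.0704, adjusted 0.209). miR-29b and miR-29c, neighbours in the chromosome 1 cluster, correlated with r = 0.143 (permutation p = 0.661, adjusted 0.661) and rho = 0.0979 (permutation p = 0.769, adjusted 0.769). No pair passed after adjustment. Without the 2 pools farthest from the median of the first-named member, r was 0.691, 0.550 and 0.486. Within the 8 pools of slide 1, r was 0.728 (exact permutation p = 0.0423, adjusted 0.127), 0.626 (exact p = 0.0984, adjusted 0.148) and -0.0398 (exact p = 0.937, adjusted 0.937).

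The low value for miR-29b with miR-29c rested on the ZT22 pool. Without it the r of the pairs miR-29a with miR-29c, miR-29a with miR-29b and miR-29b with miR-29c were 0.731, 0.684 and 0.629, with adjusted permutation p-values of 0.0293, 0.0293 and 0.0372. Without ZT50 the r of miR-29a with miR-29c was 0.768 (adjusted permutation p = 0.0165), the highest with any 1 pool left out. Both pools were singled out after the values were seen, so these p-values are a description and no test. The members share the array and its scaling. Over all 5886 pairs of the 109 entries, with all pools kept, the median r was 0.184 and the upper quartile 0.427.

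**Figure D5:**
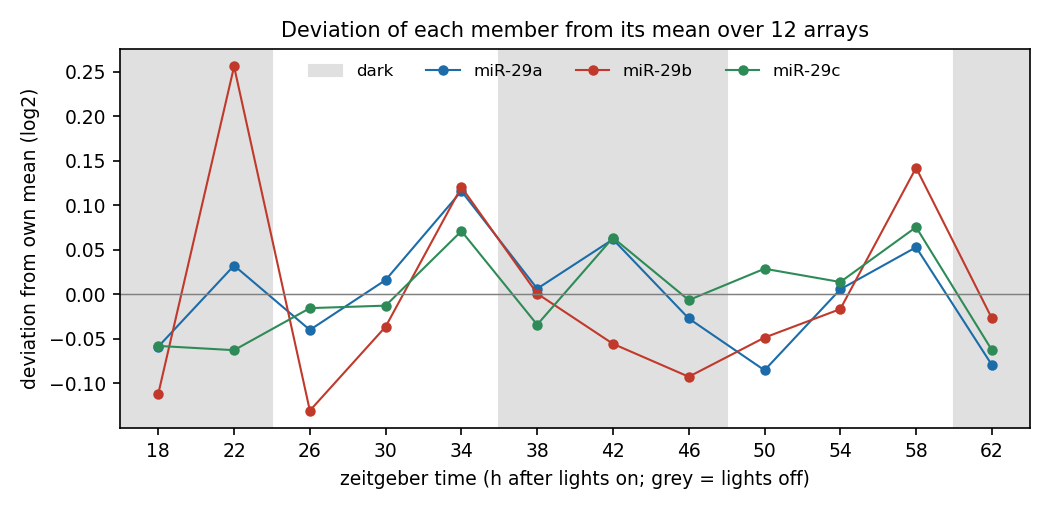
Deviation of each member from its own mean over 12 arrays (vertical axis, log2 units) against zeitgeber time in hours; grey marks lights off. At ZT34 and ZT58 all 3 members lie above their means, and at ZT22 miR-29b lies at 0.26 with miR-29a at 0.03 and miR-29c at -0.06.

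The difference between members on an array does not depend on the factor by which the array is scaled. The SD over arrays of the log2 difference was 0.05 for miR-29c minus miR-29a, 0.09 for miR-29b minus miR-29a and 0.12 for miR-29c minus miR-29b. The largest departure from the mean difference was that of ZT22 in the pairs with miR-29b, 0.22 for miR-29b minus miR-29a and -0.32 for miR-29c minus miR-29b. For miR-29c minus miR-29a the extremes were -0.10 at ZT22 and 0.11 at ZT50. The dark minus light change of these differences was 0.01 for miR-29b minus miR-29a, -0.03 for miR-29c minus miR-29a and -0.04 for miR-29c minus miR-29b. The cycle 2 minus cycle 1 change was -0.0089 for miR-29b minus miR-29a, 0.06 for miR-29c minus miR-29a and 0.07 for miR-29c minus miR-29b. These changes are given with no test.

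Among the 108 other entries never at the floor, those most like each member were found by r over the 12 pools, as a description. For miR-29a they were let-7b (0.763), a restraint on growth genes, miR-24 (0.675), also reported to act on Period messengers, and miR-29c (0.600). For miR-29b they were miR-107 (0.749), known for a role in insulin sensitivity, miR-130a (0.649) and miR-152 (0.628). Without ZT22 these 3 values were 0.554, 0.139 and 0.455. For miR-29c they were miR-1895 (0.774), miR-712 (0.698) and the herpesvirus entry mcmv-miR-M23-1-5p (0.674). Their mean intensities were 36.4, 38.1 and 151, and uninfected liver should hold no template for the last. The best r of an entry with any other had a median of 0.823 over the 109 entries, above the best value of each member.

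Other miRNAs reported to act on Period messengers were measured beside miR-29a. All 4 were tested, and 0 passed for a 24-h rhythm or between dark and light. The 24-h folds were 1.04 (upper limit 1.15) for miR-24, 1.02 (upper limit 1.10) for miR-30a, 1.04 (upper limit 1.15) for miR-192 and 1.04 (upper limit 1.13) for miR-194, so that miR-29a at 1.05 (upper limit 1.15) was of the same order. Between dark and light, 3 of the 4 had a negative and 1 a positive difference (median -0.01 log2 units). Of 14 miRNAs tied to liver fibrosis or stellate cells, 13 are on the array and 8 were tested, with 0 passing either test. Their median 24-h fold was 1.11. Among those that rise with stellate cell activation, miR-21 had a fold of 1.12 (upper limit 1.29), miR-221 one of 1.11 (upper limit 1.29) and miR-199a-5p one of 1.11 (upper limit 1.41), the last at a mean intensity of only 37.1. The largest fold of the 8 was that of miR-199b*, 1.42 (upper limit 2.07), at a mean intensity of 30.3. Dark minus light was negative for 5 of the 8 and positive for 3 (median -0.02 log2 units).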

How the data were processed

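The deposited values are spot intensities. Per the file headers, Agilent's Feature Extraction software had subtracted background and removed spatial trends; the headers give its version as 10.7.3.1, the submitters' notes on processing as 9.5.3.1. Other values in the deposited scanner files are flags. The series value table holds the same intensities (largest difference 0). No genome build is given in the sources used here for the array.

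Control spots and outlier spots (3.82% to 6.94% of an array) were left out and the spots of a probe averaged. Arrays were scaled to the 75th percentile of 157 probes, those detected throughout (more than 50% of spots well above background; factors 0.910 to 1.16), floored at 21.9 and put on the log2 scale. A miRNA is its brightest probe. Tests used limma 3.58.1 in R 4.3.3 with an intensity trend, adjusted by Benjamini-Hochberg over 139 entries at 0.05. They were run on simulated data with planted changes far larger than those of the members. How well they find changes of the members' size was not tested. Correlations used 100000 permutations, or all of them within slide 1. Clock time, cycle and lights come from the sample titles. Pools 24 h apart are the replicates in the clock-time and cycle tests, whose p-values measure the spread between pools with labelling and hybridisation. Between dark and light, the spread also holds differences between the clock times of a phase. In the rhythm tests it also holds departures of clock times from the fitted wave. The number of arrays limits precision.

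Named entries are the members and their star forms, the 3 entries most like each member, 2 lists (Period messengers, fibrosis) and cell type markers. Members and lists were chosen with earlier results of these data known. The normexp alternative used the median spot signal, as the files hold no mean signal. Testing took the 139 entries with a detection call from the software on 6 or more arrays, and 5 of these lay at the floor on all 12. The alternative without this filter left out entries at the floor on all 12 arrays.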

Additional observations from a re-analysis of the deposited data

Results flagged for a closer look

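The miR-29b value of the ZT22 pool, 10.51 on the log2 scale (1459 intensity units), stood far from the other 5 dark pools. Its gap to the next dark pool was 0.694 of the range of the 6, above the critical value of 0.625 of Dixon's test. Of the 6 combinations of member and lights examined, this was the only one above the critical value, and chance places about 5% of groups there. Both probes of miR-29b showed it, the brighter one 0.26 and the dimmer one 0.31 log2 units above their means over the 12 arrays.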

How the results depend on the processing

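The comparison of cycles holds clock time as a block. No paired analysis of dark and light was possible. Each clock time is wholly dark or wholly light, and the labels give no number that pairs a dark with a light pool. Every spot of the members was well above background. For dark minus light, the members (order: miR-29a, then miR-29b, then miR-29c) turned positive with all-probe scaling (0.41, 0.42 and 0.38) and without scaling (0.039, 0.051 and 0.0074). The same held for miR-29a and miR-29b with quantile normalization (0.041 and 0.0095) and normexp (0.047 and 0.054), and for miR-29b with the software's total gene signal (6.5e-05) and on slide 1 alone (0.015). The median of all entries moved to 0.38 with all-probe scaling and to -0.36 with normexp, against -0.02; relative to it the members stood, in that order, at 0.03, 0.04 and -0.0019 with all-probe scaling and at 0.41, 0.41 and 0.34 with normexp. For cycle 2 minus cycle 1, miR-29c turned to -0.50 with all-probe scaling, -0.0077 without scaling and -0.00053 with normexp, and miR-29a to 0.041 with quantile normalization and 0.031 with the slide as a block or on slide 1 alone. With normexp 1 entry, miR-451 of red cells, passed the 24-h, time-of-day and 12-h tests, and on slide 1 alone 3 entries passed the time-of-day test (miR-1897-5p, at the floor on 7 arrays, miR-362-3p, on 9, and miR-680, on 10); these names were taken after their values were seen. The correlations of miR-29a with miR-29b, miR-29a with miR-29c and miR-29b with miR-29c rose past the threshold with all-probe scaling (0.983, 0.998 and 0.973) and without scaling (0.867, 0.936 and 0.775) and with normexp for the first 2 (0.728 and 0.686). miR-29b with miR-29c turned negative with quantile normalization (-0.286), the total gene signal (-0.141) and on slide 1 alone (-0.0398). All-probe scaling took its factors, 0.674 to 2.18, from a level near background. The cause of these changes was not tested.

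Leaving out 1 pool at a time, the number of entries passing was 0 to 0 for both rhythms and the cycle, 0 to 2 between dark and light (2 without ZT30, miR-1895 and miR-101b) and 0 to 8 over clock times (8 without ZT26, 2 without ZT46, 1 without ZT54, miR-362-3p, and 1 without ZT58, miR-680). In the same order of members, the 24-h fold lay between 1.02 and 1.07, 1.02 and 1.16, and 1.03 and 1.07; the 12-h fold between 1.06 and 1.09, 1.08 and 1.23, and 1.02 and 1.05; and the clock-time span between 1.08 and 1.13, 1.16 and 1.27, and 1.08 and 1.10. Dark minus light lay between -0.041 and -0.00065, -0.062 and 0.017, and -0.07 and -0.04, and cycle 2 minus cycle 1 between -0.053 and -0.012, -0.056 and 0.030, and 0.021 and 0.051. The correlations lay between 0.531 and 0.691 (miR-29a with miR-29b), 0.469 and 0.768 (miR-29a with miR-29c) and -0.0457 and 0.629 (miR-29b with miR-29c). Of 521 values recomputed under the alternatives, 469 kept their side of the threshold and, where they had one, their direction. Rhythm folds and clock-time spans have no direction to change, so this number does not measure how stable their size was.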

Other observations

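The ZT22 pool was the highest of the 12 for miR-29b in each of the 7 settings of scaling or summary, 0.21 to 0.63 log2 units above the mean. In the same pool miR-29c was the lowest of the 12 with the scaling used (-0.06) and at rank 3 from the highest without scaling (0.06). miR-29a stood at 0.03. Of the 109 entries never at the floor, 26 had their highest value in this pool, the most of any pool, and miR-29b had the 9th largest deviation there. The miR-130a, miR-152 and miR-107 entries, those most like miR-29b, stood 0.21, 0.20 and 0.15 above their means at ZT22. At ZT46, the same clock time a day later, miR-29b stood at -0.09.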
